A study of Rattus norvegicus with 6 samples.

Results

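Messenger RNA of neonatal rat ventricular myocytes that carried a short hairpin RNA against JIP1 was compared with that of the same kind of cells carrying a control hairpin, where both groups had also received phenylephrine and TSA. These cells are muscle cells of the newborn rat heart kept in culture. The comparison was chosen by its labels: 4 of the 6 libraries of the series enter it, 2 for each hairpin. The remaining 2 libraries, with phenylephrine and the control hairpin but no TSA, are used for the spread between replicates and as a reference level. Phenylephrine is an alpha-1 adrenergic agonist that makes cultured cardiomyocytes grow, and TSA usually stands for trichostatin A, which inhibits histone deacetylases. Treatment lasted 3 days in every group, so every library carries a hairpin and phenylephrine, and no culture without them enters. The labels name a JIP1 knockout in one field and a hairpin in another. The hairpin wording is used here, and the sequence of the hairpin and how it was delivered are not given in these sources. Nothing in the labels ties replicates to separate cultures or animals, so the p-values measure only the spread between these libraries, which may be technical.

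The gene Mapk8ip1 encodes JIP1, a scaffold that holds the kinases of the JNK cascade together, from the mixed-lineage kinases (MAP3K) through MKK7 to JNK. It also binds the light chain of kinesin-1 and so links cargo to microtubule transport. JNK phosphorylates transcription factors of the AP-1 family such as c-Jun and is one of the stress kinases active in heart muscle. RNA levels read neither kinase activity nor transport.

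The table of the authors gives FPKM, fragments scaled by transcript length and by library size, so levels of different genes are on a scale per length. A feature is 1 line of that table, and 10359 of 13843 features reached a mean of 1 FPKM over the 6 libraries and were tested. Changes are differences in log2(FPKM + 1) between the JIP1-hairpin and the control-hairpin libraries, given ± standard error (SE) from limma. A feature passed when its Benjamini-Hochberg adjusted p was under 0.05. Since 1 is added before the logarithm, changes of genes with low FPKM are understated.

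Relative depth was read from the steps of the low values, as the most frequent ratio of low values between libraries. Against control-hairpin library 1, control-hairpin library 2 had an estimated 0.638 of the reads and the JIP1-hairpin libraries 0.674 and 0.538. These ratios were held by 24 of 396, 39 of 324 and 26 of 268 low features, so the estimates are rough. For 1 of the libraries without TSA the estimate was only 0.0359, held by 13 of 40 low features. Between the 2 libraries of a group, 1.63% (control hairpin) and 1.64% (JIP1 hairpin) of tested features differed by more than 2 on the log2 scale. For the libraries without TSA, whose spread also enters the p-values, the share was 3.40%. Single features took up to 19.7% of all FPKM in a library, and 0, 3, 5 and 6 features exceeded 10000 FPKM in the 4 compared libraries. A value of 0 was not always absence of RNA, since 13 of 57 listed ribosomal protein features were at 0 in at least 1 of these 4 libraries. The table holds 250 symbols on several lines. Each line was tested on its own and is called a listing.

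The hairpin's target was read first. Mapk8ip1 stood at 14.6 and 17.9 FPKM in the control-hairpin libraries and at 1.80 and 3.65 FPKM in the JIP1-hairpin libraries. Both JIP1-hairpin libraries lay below both control-hairpin libraries, and also below the 3.77 and 4.39 FPKM of the libraries without TSA. The difference of -2.25 ± 0.34 (95% interval -3.08 to -1.42, limma) had an unadjusted p of 0.00049, but the adjusted p of 0.077 missed the threshold. It missed it under each of the 16 alternative settings as well, with adjusted p-values from 0.0535 to 0.345 and differences from -2.61 to -1.89.

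The other scaffolds of the family did not show a difference of that size. Mapk8ip3, encoding JIP3, a scaffold for JNK and kinesin-1 in neurons, had 19.8 and 40.5 FPKM with the control hairpin and 18.4 and 31.5 FPKM with the JIP1 hairpin. Its change was -0.23 ± 0.40, with a 95% interval from -1.21 to 0.75 (limma adjusted p = 0.848). Spag9, encoding JIP4, had 33.3 and 50.2 against 37.2 and 43.5 FPKM, a change of -0.02 ± 0.25 (limma adjusted p = 0.98). The groups overlapped for both genes. Mapk8ip2 was not analysed here.

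Of the 24 tested genes of the JIP scaffold and JNK cascade list, 0 passed, 12 were higher and 12 lower with the JIP1 hairpin, and their median change was 0.00. Mapk8, which encodes JNK1, had 12.1 and 10.1 FPKM with the control hairpin and 17.5 and 12.7 FPKM with the JIP1 hairpin (0.40 ± 0.25, limma adjusted p = 0.516). Mapk9, which encodes JNK2, had 21.8 and 16.6 against 16.9 and 16.1 FPKM (-0.20 ± 0.23, limma adjusted p = 0.744). For neither kinase gene did the test find a difference. Among the kinases upstream of JNK, Map2k4, encoding MKK4, was at 14.4 and 15.1 against 25.9 and 31.8 FPKM (0.91 ± 0.24, limma adjusted p = 0.174). The MKK7 gene Map2k7 was at 11.8 and 11 against 8.18 and 5.18 FPKM (-0.72 ± 0.29, limma adjusted p = 0.321). Map3k11, the gene of the mixed-lineage kinase MLK3, was at 10.6 and 14.9 against 6.23 and 6.89 FPKM (-0.85 ± 0.26, limma adjusted p = 0.223). The groups did not overlap for these 3 upstream kinases, a property shared by 50.0% of all tested features (24.9% with the JIP1 hairpin above and 25.1% with it below). Dusp10, a phosphatase of JNK and p38, was at 10.2 and 14.3 against 39.1 and 40.2 FPKM (1.63 ± 0.28, limma adjusted p = 0.0923) and did not pass.

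**Figure D1:**
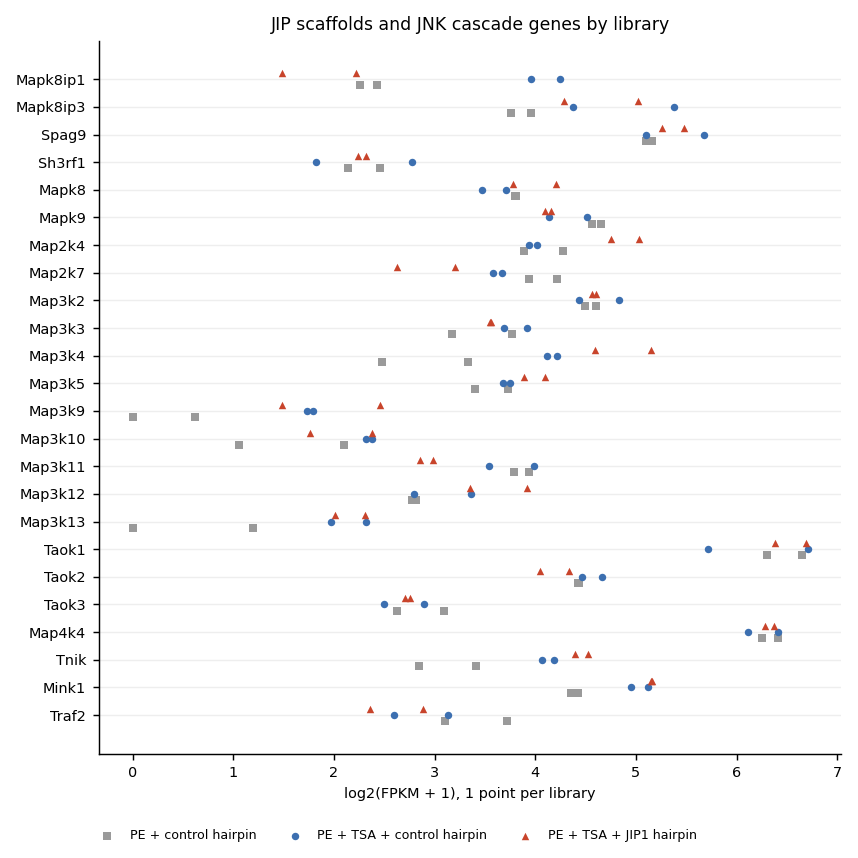
FPKM of the JIP scaffold genes and of JNK cascade genes in each of the 6 libraries, on a logarithmic axis, with 1 point per library coloured by group. Mapk8ip1 is lowest in the JIP1-hairpin libraries (1.80 and 3.65 FPKM), while the points of Mapk8ip3 and Spag9 overlap between the hairpins.

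Across all tested features the median change was -0.003, which the scaling of FPKM to library size largely sets, and the quartiles were -0.37 and 0.33. On this scale 5144 features were higher and 5204 lower. A change of at least 1 in either direction was measured for 1012 features, and of at least 2 for 177. Adjusted p-values under 0.05 were reached by 30 features (0.29% of those tested), of which 19 rose (0.183%) and 11 fell (0.106%). All 30 had groups that did not overlap, and the smallest change among them was 1.61. Unadjusted p-values under 0.05 were more frequent on the lower side, with 926 features (8.94%) against 614 (5.93%) on the higher side, or 14.9% in both directions.

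The number that passed depends on single libraries and on the 2 libraries without TSA, which lend their spread. When only the 4 compared libraries were fitted, 8 features passed, of which 3 were among the 30: Frg1 listing 1, Cmss1 listing 2 and Fhl1. Leaving out 1 library at a time gave 7 to 16 features. Without library 1 or 2 of the group without TSA, 8 and 7 passed, without control-hairpin library 1 or 2, 14 and 9, and without JIP1-hairpin library 1 or 2, 13 and 16. Of the 30 features, at most 3 passed in any of these 6 fits. Each of the 30 kept its direction in every alternative in which it was tested (15 for features of symbols on several lines, 16 for the others), and each passed in 4 to 13 of them. Since their groups did not overlap, leaving out a library or changing the pseudocount could not turn a direction. The kept directions are therefore no support. A trimmed-mean scaling of the libraries gave 42 features that passed, all 30 among them, with 22 higher and 20 lower against 19 and 11 here.

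**Figure D2:**
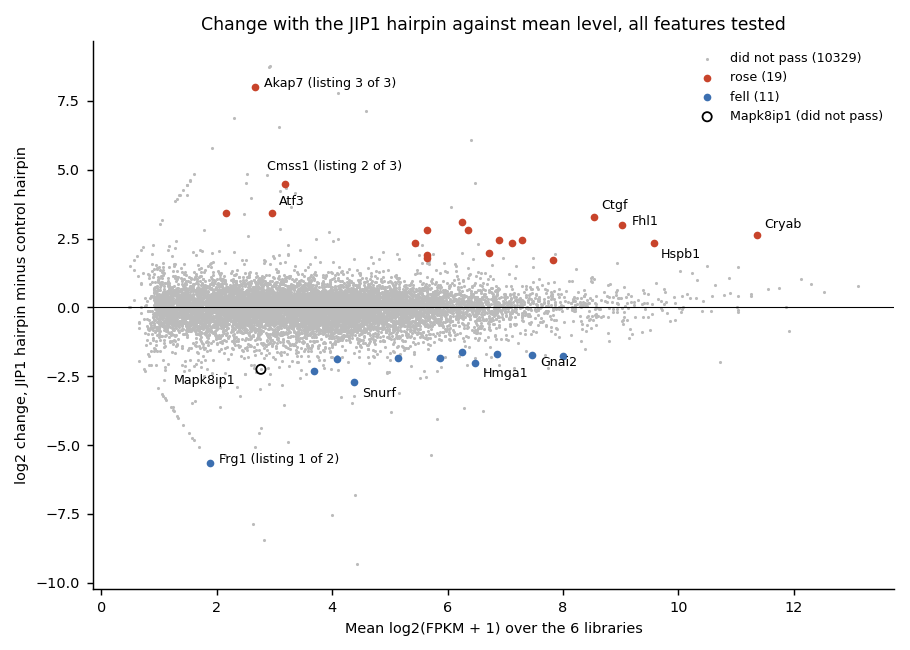
Each point is 1 of the 10359 tested features, with its mean log2(FPKM + 1) over the 6 libraries on the horizontal axis and its log2 change, JIP1 hairpin minus control hairpin, on the vertical axis. The 19 features that rose and the 11 that fell are coloured, and none of them lies within 1.61 of 0.

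Genes known as targets of YAP, TAZ and TEAD formed one group among the rises. YAP and TAZ are co-activators held in check by the Hippo kinases, and they act through the TEAD factors, which bind the letters GGAATG. Ctgf, a matricellular growth factor, had 110 and 186 FPKM in the control-hairpin libraries and 1235 and 1612 FPKM in the JIP1-hairpin libraries. Both JIP1-hairpin libraries also lay above the 226 and 279 FPKM without TSA. The change was 3.29 ± 0.32 (limma adjusted p = 0.027). Cyr61 listing 2, a matricellular protein of the same family, had 103 and 77.7 against 425 and 575 FPKM, and rose by 2.45 ± 0.25 (limma adjusted p = 0.033). Its other listing had 4.71 and 6.11 against 30.7 and 56.9 FPKM and did not pass (limma adjusted p = 0.0952). Amotl2, an angiomotin that binds YAP and is itself a YAP target, had 68.0 and 69.4 against 255 and 294 FPKM (1.98 ± 0.20, limma adjusted p = 0.0339). For Cyr61 listing 2 and Amotl2 the control-hairpin libraries were close to those without TSA, at 89.0 and 78.6 FPKM for the former and 52.8 and 65.9 FPKM for the latter, and only the JIP1-hairpin libraries stood apart.

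The stretches of 250 bases before the start of these 3 genes hold the TEAD letters and are printed from RefSeq, build GRCr8, 5′ to 3′ on the strand of the gene, with GGAATG or its reverse complement CATTCC in capitals. Values were made on another build, so the stretches serve only as sequence. Ctgf (Ccn2 in RefSeq, chr1:22624615-22624864, minus strand) holds GGAATG 3 times, starting at -166, -101 and -92 from the start site. Cyr61 (Ccn1, chr2:237225690-237225939, minus strand) holds CATTCC at -113, and Amotl2 (chr8:112182376-112182625, plus strand) holds it at -76.
Ctgf: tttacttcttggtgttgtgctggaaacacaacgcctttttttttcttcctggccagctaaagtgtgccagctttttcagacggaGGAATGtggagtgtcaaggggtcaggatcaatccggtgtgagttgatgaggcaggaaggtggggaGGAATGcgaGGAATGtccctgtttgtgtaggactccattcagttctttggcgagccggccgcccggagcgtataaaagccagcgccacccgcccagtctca
Cyr61: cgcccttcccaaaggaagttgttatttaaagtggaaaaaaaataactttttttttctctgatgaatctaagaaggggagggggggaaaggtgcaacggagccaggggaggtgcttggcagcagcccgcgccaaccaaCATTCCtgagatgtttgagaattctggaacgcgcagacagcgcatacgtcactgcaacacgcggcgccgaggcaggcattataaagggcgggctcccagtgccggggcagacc
Amotl2: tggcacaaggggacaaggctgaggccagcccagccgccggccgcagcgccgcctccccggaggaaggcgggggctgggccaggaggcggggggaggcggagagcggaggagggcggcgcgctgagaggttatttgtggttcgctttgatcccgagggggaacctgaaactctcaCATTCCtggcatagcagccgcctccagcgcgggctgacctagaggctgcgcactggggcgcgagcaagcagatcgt

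A search of both strands found these letters in 6 of the 15 risen genes with a RefSeq stretch (40.0%): Akap7, Amotl2, Ctgf, Cyr61, Flnc and Hspb1. They were found in 1 of 7 fallen genes (14.3%, Tmem51), in 846 of 8153 tested genes (10.4%) and in 12.9% of all 27457 stretches. The E-box CACGTG was in 2 of 15 risen genes (13.3%) and 3 of 7 fallen genes (42.9%), against 8.65% of tested genes. The AP-1 letters TGACTCA were in 1 risen gene (6.67%) and 1 fallen gene (14.3%), against 3.30%. The CRE letters TGACGTCA were in 1 risen gene (6.67%) and 0 fallen genes, against 3.20%, and the CArG box in 1 risen gene, Fhl1 (6.67%), and 0 fallen genes, against 1.29%. In the 3 printed stretches no other of the searched motifs was present. A stretch belongs to a symbol and not to a single line of the table. Akap7 counts as risen by listing 3 alone, which was listed at 0 in every library without the JIP1 hairpin, and its other listings did not pass. The CRE match is that of Cmss1, whose most abundant listing did not pass. A match of letters is a description of sequence and shows no binding.

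Within the whole YAP, TAZ and TEAD list, 3 of 28 tested features rose, 0 fell, 19 were higher and 9 lower, and the median change was 0.30, against -0.003 over all tested features. Of its features, 11 (39.3%) had an unadjusted p under 0.05 on the higher side and 1 (3.57%) on the lower. Over all tested features the shares were 5.93% and 8.94%. The factors themselves were near level. Yap1 had 27.6 and 31.2 against 31.3 and 25.2 FPKM (-0.06 ± 0.21, limma adjusted p = 0.92). Tead1 had 120 and 113 against 118 and 103 FPKM (-0.07 ± 0.20, limma adjusted p = 0.903). Wwtr1, encoding TAZ, had 37.6 and 36 against 52.5 and 56.8 FPKM (0.56 ± 0.21, limma adjusted p = 0.296). Ankrd1, a target that is also a cardiac stress gene, had 1671 and 1085 against 4578 and 3044 FPKM (1.47 ± 0.35, limma adjusted p = 0.153) and did not pass.

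Proteins of the Z-disc and its chaperones made up the second group of rises. The Z-disc anchors actin filaments at the ends of the sarcomere, and small heat shock proteins bind there under mechanical load. Fhl1, a LIM protein that binds titin, had 178 and 141 FPKM with the control hairpin and 1315 and 1248 FPKM with the JIP1 hairpin. Without TSA it was at 815 and 595 FPKM, so the JIP1-hairpin libraries were the highest of all 6. Its change was 3.01 ± 0.25 (limma adjusted p = 0.0241), and it passed in 9 of 16 alternatives. Flnc, the muscle filamin, had 37.1 and 26.6 against 222 and 232 FPKM (2.81 ± 0.22, limma adjusted p = 0.0241). Xirp2, an actin-binding protein of the intercalated disc and Z-disc, had 16.5 and 12.5 against 99.8 and 114 FPKM (2.81 ± 0.24, limma adjusted p = 0.0241). Flnc and Xirp2 were at 74.8 and 71.8, and at 86.0 and 65.6 FPKM, in the libraries without TSA, so that the control-hairpin libraries were the low end for these genes.

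Cryab, encoding the chaperone alpha-B crystallin, had 1225 and 1199 FPKM with the control hairpin and 7174 and 7675 FPKM with the JIP1 hairpin (2.61 ± 0.29, limma adjusted p = 0.0403). Hspb1, encoding the small heat shock protein HSP27, had 429 and 458 against 2192 and 2248 FPKM (2.32 ± 0.21, limma adjusted p = 0.0241). Its levels without TSA were 441 and 459 FPKM, close to those with the control hairpin. These 5 were the features that passed among 23 tested of the Z-disc list, where 0 fell, 14 were higher and 9 lower, and the median was 0.38. That median ranged from 0.14 without JIP1-hairpin library 1 to 0.79 without control-hairpin library 1. Of all tested features 0.183% rose. In the Z-disc list an unadjusted p under 0.05 was reached by 9 on the higher side (39.1%) and 1 on the lower (4.35%), against 5.93% and 8.94% of all tested features. The list of cytosolic heat shock genes shares Hspb1 and Cryab with the Z-disc list. In it these 2 rose, 0 of 20 fell, and 17 were higher and 3 lower, with a median of 0.31. Only these 2 of the list had an unadjusted p under 0.05, or 10.0% against 5.93% of all tested features on the higher side. Among further small heat shock genes of the Z-disc list, Hspb6 had 197 and 182 against 449 and 380 FPKM (1.12 ± 0.22, limma adjusted p = 0.111). Hspb7 had 527 and 162 against 594 and 245 FPKM and Hspb8 had 68.2 and 98.4 against 72.5 and 84.4 FPKM, and for both the groups overlapped.

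None of 37 tested genes of the actin and SRF list passed. On the higher side 12 (32.4%) had an unadjusted p under 0.05, and on the lower side 3 (8.11%). Over all tested features the shares were 5.93% and 8.94%. Their median was 0.21, and it was 0.36 without control-hairpin library 1 and 0.34 without control-hairpin library 2. Cald1, which encodes the actin-binding protein caldesmon, had 47.8 and 42.9 against 125 and 126 FPKM (1.45 ± 0.19, limma adjusted p = 0.0605). Actn1, a non-muscle alpha-actinin, had 62.7 and 92.6 against 207 and 229 FPKM (1.5 ± 0.26, limma adjusted p = 0.0923). Des, the muscle intermediate filament desmin, had 254 and 190 against 688 and 647 FPKM (1.6 ± 0.23, limma adjusted p = 0.0751). The summed level of the smooth muscle and pericyte markers was 777 and 568 FPKM with the control hairpin and 1364 and 1296 FPKM with the JIP1 hairpin, with 0 of them passing. Des itself and Tagln carry that difference. Without them the sums were 424 and 332 against 447 and 408 FPKM. Of the 12 tested markers 8 were higher and 4 lower. Cnn1 (0.63) and Mcam (0.58) were among the higher, and Acta2 (-0.13), Myh11 (-0.52) and Cspg4 (-0.80) among the lower. In bulk RNA, fewer cells of a type and less RNA per cell cannot be told apart.

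**Figure D3:**
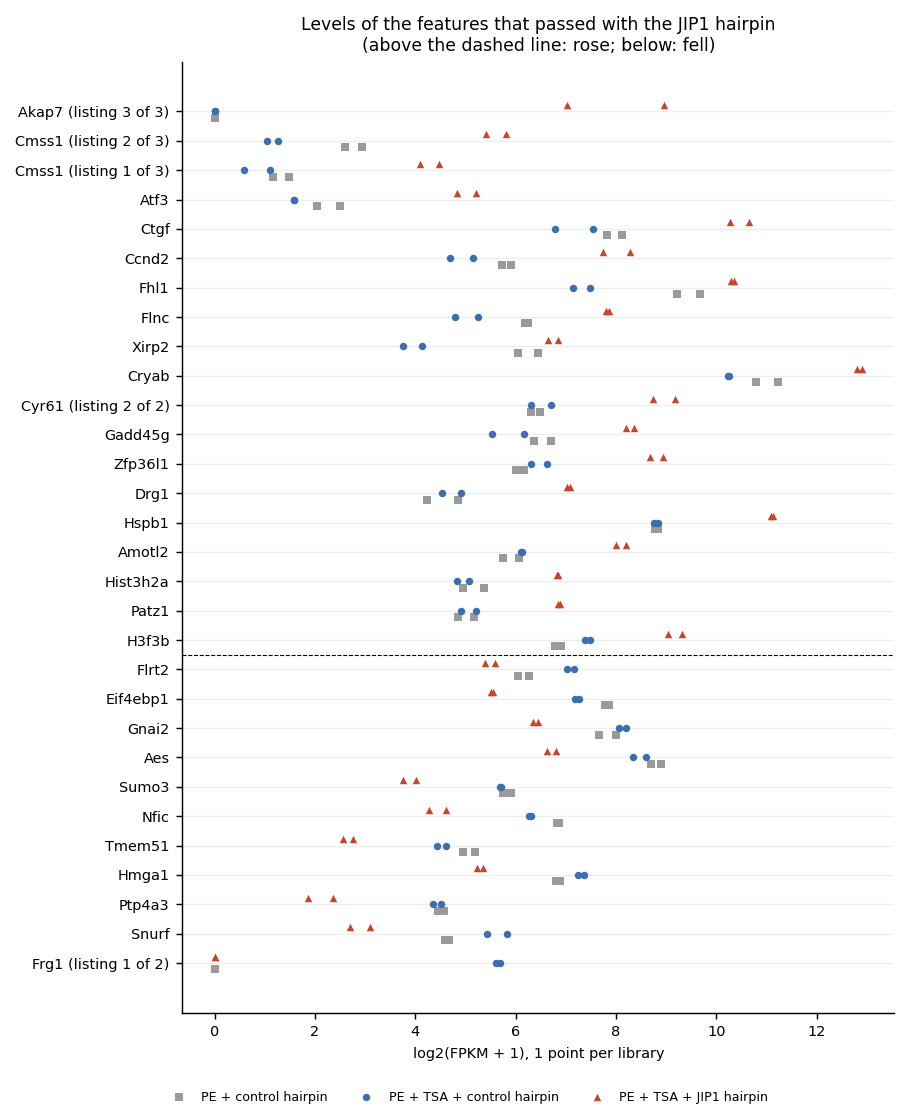
FPKM in each of the 6 libraries, on a logarithmic axis, for the features that passed the test, coloured by group. The JIP1-hairpin points lie on 1 side of both control-hairpin points for every feature shown, and for Ctgf, Fhl1, Hspb1 and Cryab they are the highest of the 6.

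Atf3, Gadd45g and Zfp36l1 rose as well. Atf3, a transcription factor induced by many stresses, had 2.01 and 1.99 FPKM with the control hairpin, 27.4 and 36.3 FPKM with the JIP1 hairpin and 4.69 and 3.11 FPKM without TSA. The change was 3.44 ± 0.30 (limma adjusted p = 0.0241). Gadd45g, a stress sensor that binds the kinase MEKK4 upstream of JNK and p38, had 71.1 and 45.1 against 295 and 328 FPKM (2.44 ± 0.27, limma adjusted p = 0.0403). Zfp36l1, which binds AU-rich elements and hastens the decay of messenger RNA, had 77.9 and 97.8 against 408 and 488 FPKM (2.34 ± 0.21, limma adjusted p = 0.0242). All 3 were at their highest of the 6 libraries with the JIP1 hairpin. In the list of AP-1 and immediate early factors, 1 of 38 tested features rose (Atf3) and 0 fell. In this list 27 were higher and 11 lower, the median was 0.50, and it ranged from 0.31 without JIP1-hairpin library 2 to 0.78 without JIP1-hairpin library 1. The 38 features belong to 35 symbols, and without symbols on several lines and small RNAs the median was 0.31. On the higher side 10 (26.3%) had an unadjusted p under 0.05 and on the lower side 3 (7.89%), against 5.93% and 8.94% of all tested features. Jun listing 1 had 13.6 and 10.0 against 18.2 and 28.4 FPKM (0.91 ± 0.29, limma adjusted p = 0.236). Klf4 had 30.9 and 35.5 against 14.3 and 16.2 FPKM (-1.07 ± 0.20, limma adjusted p = 0.106), so members of the list did not all lie on the same side.

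Ccnd2, H3f3b, Hist3h2a, Patz1 and Drg1 rose. Ccnd2, encoding cyclin D2, which starts the G1 phase with CDK4 or CDK6, had 34.5 and 24.9 FPKM with the control hairpin and 311 and 214 FPKM with the JIP1 hairpin. It rose by 3.10 ± 0.27 (limma adjusted p = 0.0241) and was the only one of 22 tested G1 cyclin, kinase and inhibitor features to pass. Without TSA it was at 58.7 and 52.1 FPKM. H3f3b, a gene of the replication-independent histone H3.3, had 177 and 167 against 522 and 632 FPKM (1.73 ± 0.20, limma adjusted p = 0.0448). Hist3h2a, a histone H2A gene, had 32.5 and 27.5 against 113 and 113 FPKM (1.88 ± 0.22, limma adjusted p = 0.0458). Patz1, a zinc finger repressor, had 35.9 and 29.1 against 115 and 117 FPKM (1.81 ± 0.21, limma adjusted p = 0.0458). Drg1, a GTP-binding protein, had 22.2 and 29.1 against 129 and 134 FPKM (2.32 ± 0.27, limma adjusted p = 0.0458). For Hist3h2a, Patz1 and Drg1 the libraries without TSA lay close to the control-hairpin libraries, at 40.6 and 29.8, 35 and 28.1, and 27.8 and 17.7 FPKM.

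On the lower side, Hmga1, an architectural protein that binds AT-rich DNA, had 151 and 163 FPKM with the control hairpin, 36.3 and 39.7 FPKM with the JIP1 hairpin and 117 and 111 FPKM without TSA. Its change was -2.02 ± 0.18 (limma adjusted p = 0.0241). Nfic, a nuclear factor I transcription factor, had 78.2 and 76.3 against 18.3 and 23.3 FPKM (-1.85 ± 0.20, limma adjusted p = 0.0375). Both were lower with the JIP1 hairpin than in any of the other 4 libraries. In their list of 15 tested HMG, linker histone and nuclear factor I features 1 rose (H3f3b) and 2 fell, and the median was -0.08. The related Nfix had 43.9 and 38.8 against 25.5 and 19.3 FPKM (-0.86 ± 0.22, limma adjusted p = 0.163). Nfib had 96.4 and 82.2 against 102 and 89.4 FPKM (0.10 ± 0.25, limma adjusted p = 0.894). Aes, a short Groucho-family protein that modulates co-repression, had 387 and 325 against 110 and 97.2 FPKM (-1.77 ± 0.21, limma adjusted p = 0.0458). It was the only member to pass among 28 tested deacetylase and corepressor features, whose median was 0.07.

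A further 6 single genes fell, from no common list. Gnai2, an inhibitory G protein alpha subunit, had 294 and 267 FPKM with the control hairpin and 86.2 and 80.7 FPKM with the JIP1 hairpin (-1.74 ± 0.21, limma adjusted p = 0.0458). Eif4ebp1, a repressor of cap-dependent translation that is switched off by mTORC1, had 153 and 144 against 44.9 and 45.8 FPKM (-1.69 ± 0.18, limma adjusted p = 0.0339). With 219 and 231 FPKM without TSA, its level was ordered from no TSA through the control hairpin to the JIP1 hairpin. Eif4ebp1 is also a target of ATF4, and it was the only member to pass among 33 tested features of the ATF4 list, whose median was -0.09. Sumo3, a small protein conjugated to other proteins, had 51.6 and 50.9 against 12.5 and 15.0 FPKM (-1.83 ± 0.20, limma adjusted p = 0.0403). Ptp4a3, a phosphatase of the PRL family, had 19.4 and 21.9 against 4.15 and 2.63 FPKM (-2.32 ± 0.27, limma adjusted p = 0.0448). The membrane protein gene Tmem51 had 23.4 and 20.6 against 4.90 and 5.78 FPKM (-1.86 ± 0.23, limma adjusted p = 0.0488). Flrt2, an adhesion and guidance protein, had 143 and 129 against 41.0 and 47.0 FPKM (-1.61 ± 0.20, limma adjusted p = 0.0488). Without TSA, Sumo3 was at 59.2 and 52.6 FPKM and Ptp4a3 at 22.8 and 20.8 FPKM, near their control-hairpin levels, while Flrt2 was at 65.1 and 76.4 FPKM, between the hairpins.

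Snurf, from the imprinted Snrpn locus, had 55.6 and 41.8 FPKM with the control hairpin, 7.61 and 5.50 FPKM with the JIP1 hairpin and 24.5 and 23.2 FPKM without TSA (-2.72 ± 0.25, limma adjusted p = 0.0252). It was the only one of 23 tested imprinted features to pass, and the median of that list was -0.04. Other members lay on both sides: Cdkn1c, a CDK inhibitor, had 59.7 and 42.8 against 147 and 167 FPKM (1.61 ± 0.46, limma adjusted p = 0.199) and did not pass. Snurf shares its transcript with Snrpn, which was not analysed here. In the RefSeq annotation of GRCr8, Atf3 overlaps Garin4, Cryab overlaps Hspb2, Drg1 overlaps Eif4enif1 and Patz1 overlaps Limk2. Since no source used here gives the strand of the libraries, reads of such pairs cannot be told apart. Of the partners tested, Eif4enif1 changed by 0.31 ± 0.24 (limma adjusted p = 0.604) and Limk2 by -0.53 ± 0.31 (limma adjusted p = 0.484) and neither passed.

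Of the 30 features, 5 belong to symbols on several lines, and 4 of them are named here after their values were seen. Frg1 listing 1 had 47.9 and 50.9 FPKM in the control-hairpin libraries and was listed at 0 in the other 4 (limma adjusted p = 0.0128). Its second listing was at 9.12 and 6.39 against 6.87 and 4.37 FPKM and did not pass. Akap7 listing 3 was the reverse case, with 129 and 497 FPKM in the JIP1-hairpin libraries and listed at 0 in the other 4 (limma adjusted p = 0.0241). The other listings of Akap7, an anchoring protein of protein kinase A, did not pass. Cmss1 listing 2 had 1.40 and 1.05 against 55.4 and 41.5 FPKM (4.46 ± 0.29, limma adjusted p = 0.0155). Listing 1 of Cmss1 had 1.15 and 0.503 against 21.3 and 16.2 FPKM (3.44 ± 0.36, limma adjusted p = 0.0339). Listing 3, the most abundant, had 134 and 53.9 against 112 and 141 FPKM and did not pass, so the rises stand on the less abundant lines of the symbol. Cmss1 overlaps Filip1l in GRCr8, which was not analysed here.

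Genes of hypertrophy lay on both sides. Of 29 tested features 1 passed (Fhl1), 17 were higher and 12 lower, and 7 had an unadjusted p under 0.05 on the higher side (24.1%) and 4 on the lower (13.8%). Over all tested features these shares were 5.93% and 8.94%. The median was 0.04, and it ran from -0.20 without JIP1-hairpin library 1 to 0.23 without control-hairpin library 1. Nppa, encoding atrial natriuretic peptide, had 1748 and 1428 FPKM with the control hairpin and 1916 and 1313 FPKM with the JIP1 hairpin (0.01 ± 0.31, limma adjusted p = 0.997). Nppb, its B-type relative, was at 1000 and 1052 against 2277 and 1816 FPKM (0.99 ± 0.26, limma adjusted p = 0.18). Acta1, skeletal alpha-actin of the fetal programme, had 2821 and 3069 against 4664 and 4703 FPKM (0.67 ± 0.27, limma adjusted p = 0.325). Myh7, the fetal-type myosin heavy chain, had 149 and 37.3 against 152 and 48.0 FPKM (0.19 ± 0.74, limma adjusted p = 0.931). For Nppb and Acta1 the groups did not overlap, as for 50.0% of all tested features. Myh7 differed more between libraries of a group than between groups, and without control-hairpin library 2 its change turned to -0.79 and that of Nppa to -0.14.

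Several lists lay mostly on the lower side without a single member passing the test. Among 38 calcium handling and ion channel features 30 were lower and 8 higher, and the median was -0.53. An unadjusted p under 0.05 was reached by 10 on the lower side (26.3%) and 1 on the higher (2.63%). Over all tested features the shares were 8.94% and 5.93%. Pln, encoding phospholamban, the inhibitor of the calcium pump SERCA2, had 535 and 200 against 107 and 45.1 FPKM (-2.22 ± 0.58, limma adjusted p = 0.174). Cacna1g, a T-type calcium channel, had 33.8 and 23.7 against 12.3 and 13.6 FPKM (-1.07, limma adjusted p = 0.141). Kcnq1 listing 1, a potassium channel of repolarisation, was at 23.7 and 19.9 against 9.70 and 6.64 FPKM (-1.33 ± 0.26, limma adjusted p = 0.111). Its listing 2 lay on the other side, at 6.09 and 5.65 against 7.90 and 10.0 FPKM (0.53 ± 0.27, limma adjusted p = 0.424). For the pump itself, Atp2a2, the change was -0.03 (limma adjusted p = 0.972), and its sign turned without control-hairpin library 1 (0.22). Without control-hairpin library 1 or without JIP1-hairpin library 2 the list's median was -0.16, a smaller value by more than 1.5 times.

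Of 46 mitosis and DNA replication features 38 were lower and 8 higher, and the median was -0.47. An unadjusted p under 0.05 was reached by 5 of them, all lower, or 10.9% against 8.94% of all tested features. Cdk1, the kinase of mitotic entry, was at 183 and 296 FPKM with the control hairpin and at 3.41 and 0 FPKM with the JIP1 hairpin. Its libraries without TSA were at 77.7 and 3.56 FPKM, which lie far apart within that group. The change was -6.80 ± 1.34 (limma adjusted p = 0.111). Tpx2, a spindle assembly factor, had 7.32 and 4.33 against 1.01 and 1.62 FPKM (-1.54, limma adjusted p = 0.151). Prc1, which bundles the microtubules of the midzone, had 11.8 and 8.05 against 2.55 and 3.78 FPKM (-1.38, limma adjusted p = 0.244). The list's median was -0.16 without control-hairpin library 1 and -0.71 without control-hairpin library 2. Among 25 sarcomere features 16 were lower, 0 passed and the median was -0.38, but it was -1.01 without control-hairpin library 2 and 0.00 without control-hairpin library 1. The median of the cardiomyocyte markers moved with the same libraries, from -0.65 to 0.39. For Tnnt2, cardiac troponin T, library 1 was above library 2 with both hairpins, at 4015 and 1952 FPKM and at 4354 and 1835 FPKM.

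Transcription factors of the cardiac lineage also leaned to the lower side, with 15 of 25 tested features lower, 0 passing and a median of -0.24, which was -0.49 without control-hairpin library 2 and -0.09 without control-hairpin library 1. Tbx20, a T-box factor of heart muscle, had 249 and 135 FPKM with the control hairpin and 68.5 and 39.9 FPKM with the JIP1 hairpin (-1.79 ± 0.44, limma adjusted p = 0.155). Mef2d, a factor that is bound by class IIa deacetylases, had 104 and 114 against 57.0 and 71.2 FPKM (-0.76 ± 0.21, limma adjusted p = 0.185). Hdac9, 1 of those deacetylases, was at 8.75 and 11.2 against 3.78 and 3.15 FPKM (-1.29 ± 0.28, limma adjusted p = 0.132). Of 45 lysosome and autophagy features 30 were lower and 0 passed, with a median of -0.06, and of 48 ribosomal protein features 31 were higher and 0 passed, with a median of 0.11. Leaving out 1 library also turned the sign of the median for the JIP and JNK list (-0.15 to 0.21), the HMG list (-0.27 to 0.01), the deacetylase list (-0.04 to 0.10), the imprinted list (-0.20 to 0.15) and the Nrf2-type list (-0.18 to 0.20).

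**Figure D4:**
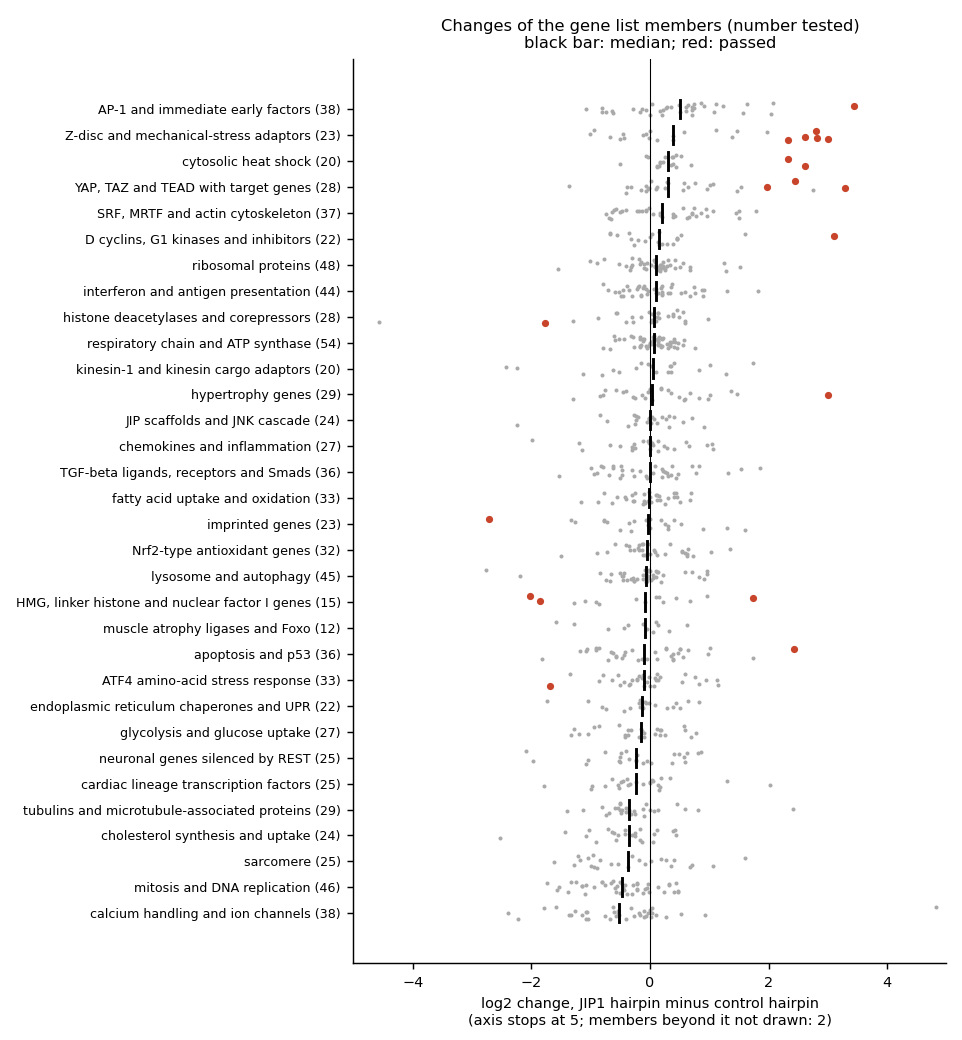
Log2 changes of the tested members of each gene list, JIP1 hairpin minus control hairpin, with 1 point per feature and a mark at the median of the list. Features that passed are coloured, and 2 members beyond the axis limit of 5 are not drawn. Lists such as calcium handling lean to the lower side with no coloured point.

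Genes of the motor that JIP1 binds were also read. Of 20 kinesin-1 and cargo adaptor features 0 passed, 11 were higher and 9 lower, and the median was 0.06. Kif5a, a neuronal kinesin-1 heavy chain, had 21.9 and 25.4 FPKM with the control hairpin and 2.69 and 4.70 FPKM with the JIP1 hairpin (-2.42 ± 0.33, limma adjusted p = 0.0628). Kif5c, another neuronal heavy chain, was at 5.25 and 7.31 against 15.2 and 17.8 FPKM (1.28 ± 0.30, limma adjusted p = 0.151). These paralogs thus lay on opposite sides, and neither passed. Without TSA Kif5a was at 0.617 and 0.536 FPKM and Kif5c at 0.756 and 0.603 FPKM. The most abundant heavy chain gene, Kif5b, had 231 and 149 against 313 and 169 FPKM (0.31 ± 0.36, limma adjusted p = 0.749). Klc1, a light chain gene, had 116 and 138 against 103 and 125 FPKM (-0.15 ± 0.20, limma adjusted p = 0.784). For both Kif5b and Klc1 the groups overlapped. In the list of tubulins and microtubule-associated proteins 22 of 29 were lower, 0 passed, and the median was -0.35. An unadjusted p under 0.05 was reached by 6 on the lower side (20.7%) and 2 on the higher (6.90%). Over all tested features the shares were 8.94% and 5.93%. Mapt, encoding tau, had 37.1 and 49.8 against 21.1 and 17.5 FPKM (-1.12, limma adjusted p = 0.152). Stmn4, a stathmin that binds free tubulin, had 0.469 and 0.894 against 6.95 and 8.94 FPKM (2.41 ± 0.39, limma adjusted p = 0.0845). Of 25 neuronal genes silenced by REST in other tissues 16 were lower, 0 passed, and the median was -0.23, or -0.11 and -0.08 without control-hairpin library 1 or 2. Syn1, a synaptic vesicle protein, had 8.61 and 12.8 against 1.04 and 3.25 FPKM (-1.97, limma adjusted p = 0.153).

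Of the ubiquitin ligases of muscle, 3 had an adjusted p between 0.05 and 0.1. Fbxo32 (atrogin-1) had 39.5 and 46.8 FPKM with the control hairpin and 12.9 and 14.5 FPKM with the JIP1 hairpin (-1.58 ± 0.21, limma adjusted p = 0.0607). Trim63 (MuRF1) had 28.6 and 24.1 against 11.1 and 9.44 FPKM (-1.28 ± 0.21, limma adjusted p = 0.0859). Trim54, a related ligase of the sarcomere, had 17.1 and 17.2 against 5.33 and 4.55 FPKM (-1.61 ± 0.28, limma adjusted p = 0.0923). The list that holds Fbxo32 and Trim63 had 12 tested features, of which 0 passed, 5 were higher and 7 lower, and a median of -0.08. Nedd4, another ligase of that list, had 284 and 220 against 173 and 135 FPKM (-0.71 ± 0.23, limma adjusted p = 0.246). Foxo3, of the same list, had 14.5 and 12.2 against 19.4 and 22.8 FPKM (0.62 ± 0.22, limma adjusted p = 0.279), and for Foxo1 and Foxo4 the groups overlapped. Igf1r, a receptor that signals to Foxo through Akt, had 18.2 and 25.7 against 53.4 and 61.5 FPKM (1.37 ± 0.24, limma adjusted p = 0.0923). A link between Igf1r and the ligases was not tested.

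Metabolic and secretory lists held no member that passed either. Of 24 cholesterol synthesis and uptake features 18 were lower, and the median was -0.36 (-0.17 without control-hairpin library 2). Of those lower, 7 had an unadjusted p under 0.05, or 29.2% of the list against 8.94% of all tested features. The sterol enzyme gene Msmo1 had 114 and 157 against 53.4 and 44.9 FPKM (-1.44 ± 0.23, limma adjusted p = 0.0845). Medians were -0.15 for 27 glycolysis and glucose uptake features, -0.01 for 33 fatty acid features and 0.06 for 54 features of the respiratory chain, the last running from -0.09 without control-hairpin library 2 to 0.24 without control-hairpin library 1. Slc2a1, the basal glucose transporter, had 139 and 118 against 59.5 and 51.5 FPKM (-1.19, limma adjusted p = 0.135). P4hb, a disulfide isomerase of the endoplasmic reticulum, had 258 and 351 against 70.7 and 114 FPKM (-1.74 ± 0.29, limma adjusted p = 0.0859), within a chaperone list of 22 whose median was -0.13. Gpx1, a glutathione peroxidase, had 38.0 and 45.0 against 13.3 and 14.8 FPKM (-1.49 ± 0.22, limma adjusted p = 0.0751), within 32 Nrf2-type antioxidant features of median -0.05.

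Among secreted signals, Tgfb2, a TGF-beta ligand, had 53.4 and 71.0 FPKM with the control hairpin and 179 and 184 FPKM with the JIP1 hairpin (1.54 ± 0.21, limma adjusted p = 0.0618). Il6, an interleukin made by stressed myocytes and fibroblasts, was at 18.2 and 25.1 against 4.43 and 4.86 FPKM (-1.99 ± 0.32, limma adjusted p = 0.0845). Neither passed, and the medians of their lists (36 TGF-beta and 27 chemokine and inflammation features) were both 0.00. Without control-hairpin library 1 or 2 the chemokine median was -0.29 and 0.29. For 44 interferon and antigen presentation features the median was 0.10, but it ran from -0.95 without control-hairpin library 2 to 1.13 without control-hairpin library 1. In the apoptosis and p53 list, Gadd45g was the only one of 36 tested features to pass, and the median was -0.09. Btg2, an antiproliferative p53 target, had 46.7 and 59.2 against 152 and 209 FPKM (1.74 ± 0.25, limma adjusted p = 0.069). Phlda3, a p53 target that inhibits Akt, was at 124 and 93.2 against 46.8 and 47.3 FPKM (-1.18 ± 0.21, limma adjusted p = 0.0923).

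Cell type markers were read in the same libraries. The summed FPKM of the cardiomyocyte markers was 14505 and 8070 with the control hairpin and 14773 and 8859 with the JIP1 hairpin, so library 1 was above library 2 in both groups by more than the groups differed. Fibroblast and matrix markers summed to 3508 and 4552 against 3622 and 4049 FPKM. Endothelial markers summed to 44.5 and 81.4 against 31.9 and 45.7 FPKM, and macrophage markers to 23.6 and 19.1 against 22.6 and 18.3 FPKM. The markers C1qa (macrophage) and Sox10 (Schwann cell) were listed at 0 in the 4 compared libraries, which need not mean absence. Other members of their lists were above 0 in all 4. Examples are Cd68 (3.41 and 9.39 against 3.37 and 3.17 FPKM) and Mbp (2.05 and 2.19 against 3.55 and 2.92 FPKM). Epicardial and mesothelial markers summed to 54.3 and 61.0 against 31.8 and 25.7 FPKM, with 7 of 7 tested lower and a median of -0.57 (-0.83 to -0.47 without 1 library). These 7 features belong to 6 symbols, and for Tbx18 and Krt8 listing 1 the groups overlapped. Krt18, a keratin in that list, had 12.1 and 16.6 against 3.52 and 3.51 FPKM (-1.75 ± 0.26, limma adjusted p = 0.0751). Krt8 listing 2, also a keratin, had 18.8 and 24.9 against 14.3 and 7.17 FPKM. These keratins were the most abundant of the list with the control hairpin. Of its untested members, Wt1 had 1.01 and 1.30 against 0.384 and 0.915 FPKM, and Msln 0.0995 and 0.156 against 1.38 and 0.370 FPKM. In these 8 marker lists 0 features passed, and the part of the epicardial levels in the results was not tested.

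**Figure D5:**
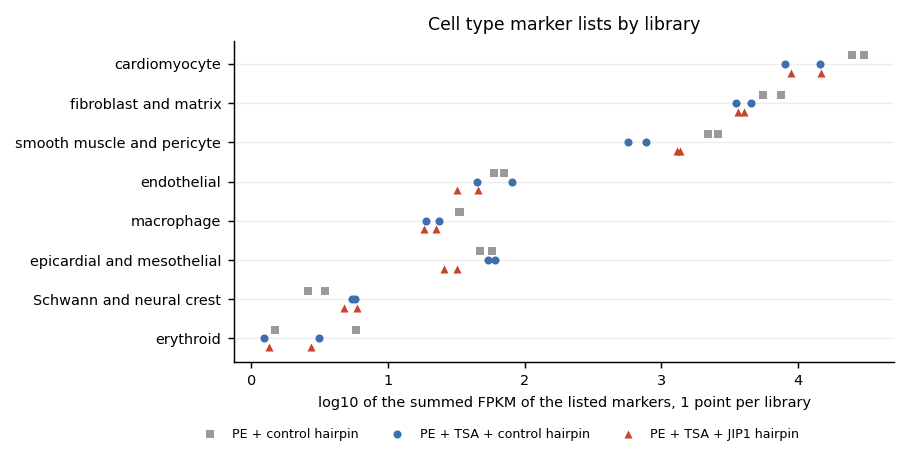
Summed FPKM of each cell type marker list in each of the 6 libraries, on a logarithmic axis, with 1 point per library coloured by group. Cardiomyocyte and fibroblast sums overlap between the hairpins, smooth muscle sums are higher with the JIP1 hairpin (1364 and 1296 against 777 and 568 FPKM, but 447 and 408 against 424 and 332 without Des and Tagln) and epicardial sums are lower.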

How the data were processed

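RNA of 6 neonatal rat ventricular myocyte samples in 3 groups was extracted with a column kit and sequenced from Illumina libraries, per the labels' protocols. Deposited by the authors was a single FPKM table with a column per library, whose header states no unit. Cufflinks and the build rn6 are named, without role or version, per the submitters' processing notes. No source used here gives the aligner, annotation, read filters or strand. Absolute depth is unknown, and relative depth was read from the steps of values at low FPKM.

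Features averaging 1 FPKM or more over all 6 libraries were fitted as log2(FPKM + 1), 1 mean per group, in limma 3.58.1 (R 4.3.3), whose prior variance followed the level (3.27 prior and 3 residual degrees of freedom). Two-sided p-values were adjusted by Benjamini-Hochberg over all 10359 tested features. The function was tested on simulated data. The comparison, the gene lists and the lists' members were chosen with earlier results of these data known, so they support nothing by themselves. Lists are described by counts and medians only. Genes were named by a rule that gave 116 features: the JIP genes; up to 25 rises and 25 falls that passed, with 1 listing, no overlap and a higher mean of at least 5 FPKM; per pathway list each member that passed and the 3 with the smallest p; and per marker list the 2 most abundant. Mapk8, Mapk9, Jun, Yap1, Wwtr1, Tead1, Ankrd1, Hspb6, Hspb8, Nfix, Nfib, Atp2a2, Pln and the hypertrophy genes were added for their role, after values were seen. Hspb7, Cnn1, Mcam, Kif5b, Klc1, Foxo1, Foxo3, Foxo4 and the second listing of Kcnq1 were added later beside other members of their lists. The 16 alternatives changed the pseudocount, filter, scaling, prior, libraries or replicate block. Of 10124 tested symbols, 9974 matched RefSeq (GRCr8), which gave names, overlaps and promoter sequences.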

Additional observations from a re-analysis of the deposited data

How the results depend on the processing

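The 30 features that passed kept their direction in each of the 15 or 16 alternatives in which they were tested, which groups without overlap largely fix in advance. The number that passed did not hold. It was 0 without the filter on low values (1898 at an unadjusted p under 0.05, smallest limma adjusted p = 0.0769), 8 in the 4 compared libraries alone, 2 with a constant prior variance, and 7 to 16 (from 0 to 13 of them higher) when 1 library was left out. With a replicate block it was 18, of which 16 were among the 30. Replicate numbers are not tied to a shared source by the labels, and same-numbered libraries deviated together only weakly (correlations 0.0735, 0.0396 and 0.122), so the numbers were not used as pairs. Other pseudocounts, scalings and filters gave 28 to 43. The cause of these shifts was not tested. Of the changes recomputed for printed genes, these, none of which passed, turned sign. Under quantile scaling Tnnt2 was -0.82, Nppa -0.43, Myl2 -0.0569 and Spag9 0.0102. The range over fits without 1 library was -0.44 to 0.18 for Acta2, -1.05 to 0.0914 for Cd74, -0.10 to 0.63 for Fn1, -0.72 to 0.27 for Mapk8ip3, -0.0631 to 0.88 for Myl2, -0.31 to 0.27 for Spag9, -0.61 to 0.64 for Tnnt2, -0.28 to 0.22 for Atp2a2, -0.33 to 0.20 for Hspb8, -0.79 to 1.17 for Myh7, -0.0121 to 0.21 for Nfib, -0.27 to 0.28 for Nppa, -0.17 to 0.0226 for Tead1 and -0.22 to 0.0886 for Yap1. Depth, 2 libraries a group and libraries that disagree on single features limit precision, and counting error could not be computed.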

Other observations

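A few features were listed at 0 in both libraries of one hairpin group and above 5 FPKM in both of the other. They were chosen after their values were seen. Beside Frg1 listing 1, 3 features were seen only with the control hairpin and did not pass. Ect2 listing 1 of 2, a gene of cell division, had 49.9 and 44.4 FPKM (limma adjusted p = 0.206). Lipogenin listing 1 of 2 had 13.8 and 74.3 FPKM (limma adjusted p = 0.274), and the microRNA gene Mirlet7f-1 had 553 and 722 FPKM (limma adjusted p = 0.154). Beside Akap7 listing 3, Mir504 was the only feature seen with the JIP1 hairpin and not in the compared control-hairpin libraries. It had 82.7 and 104 FPKM (limma adjusted p = 0.152), but also 41.5 FPKM in library 1 without TSA.

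The largest values of the compared libraries stood in single libraries. Amph listing 1 of 2 was at 121180 FPKM, or 17.8% of the summed FPKM, in control-hairpin library 2 and was listed at 0 in the other 5. Evc was at 211779 FPKM, or 19.7%, in JIP1-hairpin library 1 and at 0.711 FPKM in JIP1-hairpin library 2. Nsun5 was at 36592 FPKM, or 7.06%, in JIP1-hairpin library 2 and at 5.36 FPKM in JIP1-hairpin library 1.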
